A study of Mus musculus with 7 samples.

Results

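Of the 18 S100 genes with a named probe group on the array, 8 were followed here mouse by mouse: S100a1, S100a4, S100a6, S100a8, S100a9, S100a10, S100a11 and S100a13. They were picked by gene symbol in the platform annotation, where each symbol had 1 transcript cluster, the group of probes that reports a gene as a log2 intensity. The cells were CD45+CD11b+ spleen cells, sorted on day 14 after allogeneic hematopoietic cell transplantation (allo-HCT), with 1 array per mouse. The inhibitor group held 4 mice (R1 to R4) given Y-27632, a blocker of the kinases ROCK1 and ROCK2, intraperitoneally at 8 mg/kg once daily from day 4 to day 13, and the vehicle group held 3 mice (V2 to V4) given PBS on the same days. All 7 mice were irradiated BALB/cAnN recipients (2 doses of 5 Gy) that received bone marrow cells and T cells of C57BL6/N donors, and the labels give all as wild type. The methods give an age range of 6 to 14 weeks for the mice of the study. Every mouse carried the transplant and its T cells, so these arrays compare treatments within transplanted animals, and the gate does not separate donor from host cells.

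S100 proteins are small proteins of the EF-hand type that work mostly as dimers. Most are calcium sensors, which change shape when calcium binds. S100A8 and S100A9 pair as calprotectin, the main cytosolic protein of neutrophils and a product of inflammatory monocytes, which withholds zinc and manganese from microbes and acts on TLR4 when released. S100A4, S100A6, S100A10 and S100A11 bind myosin, annexins and other proteins inside the cell, and S100A13 takes part in the release of proteins that lack a signal peptide.

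The arrays had medians of 2.14 to 2.19 and 75th percentiles of 3.35 to 3.68, and the highest value of an array lay between 12.1 and 12.6. By limma the gate marker Itgam, which encodes CD11b, differed by -0.42 on the log2 scale (adjusted p = 0.378), and Ptprc, which encodes CD45, by 0.30. A label field that describes reticular cells goes against the other fields, which name CD11b+ CD45+ spleen cells, and the mean of 5 markers of such stromal cells lay at 2.08 to 2.23 in inhibitor mice and 1.87 to 2.11 in vehicle mice, near the array medians.

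None of the 8 S100 genes passed the threshold of an adjusted p of 0.05 in the limma fit across 22139 transcript clusters, in which 2.23% of all transcript clusters passed, 1.06% higher and 1.17% lower in inhibitor mice. Of the 8, S100a4 had the largest difference, 1.40 on the log2 scale and higher in the inhibitor mice, followed by S100a13, which differed by -0.84. In 4 of 8 genes the inhibitor and vehicle mice did not overlap, higher in S100a4, S100a6 and S100a9 and lower in S100a13, against 13.3% of all transcript clusters, of which 6.22% were higher and 7.03% lower. At an unadjusted p under 0.05 there were 3 of 8 (S100a4, S100a6 and S100a13), against 15.3% of all transcript clusters. The log2 fold changes of the 8 genes had a median of 0.24, with 7 above 0 and 1 below (with cyclic loess normalization S100a8 and S100a11 also lay below 0, at -0.11 and -0.16), beside a median of 0.00491 over all transcript clusters. The cells were measured in bulk, so a change in the share of a cell type and a change of RNA per cell cannot be told apart.

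**Figure D1:**
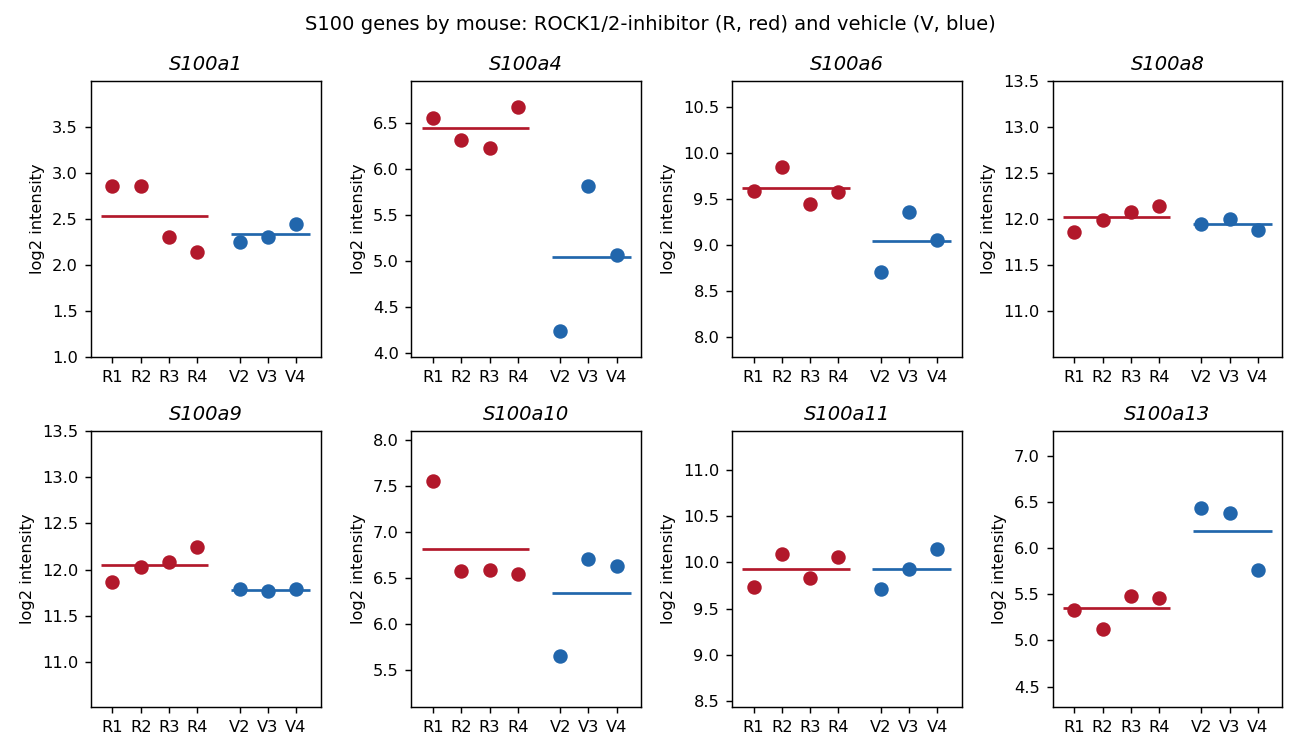
Log2 intensity (vertical axis, of the same height in every panel) of the 8 S100 genes in each mouse (horizontal axis), with inhibitor mice R1 to R4 in red, vehicle mice V2 to V4 in blue and a line at each group mean. S100a4 lies at 6.24 or more in every inhibitor mouse and at 5.82 or less in every vehicle mouse, S100a13 lies below every vehicle mouse in every inhibitor mouse, and the mice of S100a11 overlap.

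The calprotectin genes S100a8 and S100a9 were near the upper end of the scale in every mouse. S100a8 had log2 intensities of 11.86, 12.00, 12.08 and 12.15 in the inhibitor mice R1 to R4, against 11.95, 12.01 and 11.89 in the vehicle mice V2 to V4. The 3 vehicle values lay inside the range of the inhibitor values, and the log2 fold change was 0.07 (SE 0.14, 95% interval -0.24 to 0.39, adjusted p = 0.883 by limma). S100a9 had log2 intensities of 11.86, 12.03, 12.08 and 12.25 in inhibitor mice, against 11.79, 11.77 and 11.79 in vehicle mice. The lowest inhibitor mouse stood 0.07 above the highest vehicle mouse, and the vehicle mice spanned only 0.02, whereas the inhibitor mice spanned 0.39. The log2 fold change of S100a9 was 0.27 (SE 0.15, 95% interval -0.06 to 0.60, adjusted p = 0.442 by limma, exact permutation p = 0.0571). Since the highest value of each array lay between 12.1 and 12.6, both genes were close to the brightest signals that these arrays gave, and the deposited values do not say whether their probes were saturated.

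The start-site regions of S100a8 and S100a9 are shown because myeloid expression of this pair is known to use C/EBP factors and PU.1, whose mRNAs are given with the partners. Each is the RefSeq window of 250 bases before to 50 after the start in the GRCm38.p6 build, at chr3:90668821-90669120 on the plus strand for S100a8 and chr3:90695672-90695971 on the minus strand for S100a9. Capitals mark letters that match C/EBP (TTNNGNAA), PU.1 (GAGGAA), AP-1 (TGANTCA) or STAT (TTCNNNGAA) on either strand, or a TATA box (TATAAA) on the sense strand.
S100a8: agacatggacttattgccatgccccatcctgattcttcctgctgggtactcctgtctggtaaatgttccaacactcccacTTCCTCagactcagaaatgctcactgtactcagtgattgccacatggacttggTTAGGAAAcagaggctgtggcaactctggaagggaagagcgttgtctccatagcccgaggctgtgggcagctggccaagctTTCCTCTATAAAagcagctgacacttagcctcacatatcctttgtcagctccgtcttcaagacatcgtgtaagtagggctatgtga
S100a9: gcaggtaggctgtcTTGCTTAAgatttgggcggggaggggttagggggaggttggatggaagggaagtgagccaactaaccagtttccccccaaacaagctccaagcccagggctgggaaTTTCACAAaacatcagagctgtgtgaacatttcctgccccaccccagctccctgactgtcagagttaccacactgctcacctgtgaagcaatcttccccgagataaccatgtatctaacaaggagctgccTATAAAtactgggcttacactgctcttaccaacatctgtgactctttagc
In S100a8 a C/EBP match began at -117 from the start, PU.1 matches at -170 and -36 and a TATA box match at -30, and the PU.1 match at -36 stands directly before that TATA box. In S100a9 C/EBP matches began at -236 and -130, and a TATA box match began at 1, the annotated start itself. Over 32851 RefSeq windows of the same length, 40.7% held the C/EBP letters, 28.3% the PU.1 letters, 7.81% the AP-1 letters, 8.3% the STAT letters and 8.32% the TATA box letters. Windows were given for 7 of the 8 genes, all but S100a10, and 2 of these 7 held the C/EBP letters, 3 the PU.1 letters, 1 the AP-1 letters, 0 the STAT letters and 3 a TATA box. The matches are letters in a window, not measured binding.

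S100a4, whose protein binds non-muscle myosin and is found in motile cells, was the member that differed most. Its log2 intensities were 6.56, 6.31, 6.24 and 6.67 in the inhibitor mice R1 to R4, against 4.24, 5.82 and 5.07 in the vehicle mice V2 to V4. Every inhibitor mouse was above every vehicle mouse, with a gap of 0.42, and the spread lay mostly in the vehicle group, which spanned 1.57 where the inhibitor group spanned 0.44. The group means were 6.45 ± 0.21 (SD, n = 4) in inhibitor mice and 5.04 ± 0.79 (SD, n = 3) in vehicle mice, a log2 fold change of 1.40 (SE 0.32, 95% interval 0.68 to 2.12) or 2.65-fold. The adjusted p was 0.0570 by limma, just above the threshold, and the exact permutation p was 0.0286, the smallest that 35 splits of the 7 mice can give. S100a4 passed the threshold in 2 of 16 alternatives, a trended and robust variance model (adjusted p = 0.0267 by limma) and the dimmest 25% of transcript clusters left out (0.0363), and over all 16 the adjusted p ran up to 0.149. Without V2, the vehicle mouse with the lowest value, the log2 fold change was 1.0 (adjusted p = 0.149 by limma), and without V3 it was 1.79 (adjusted p = 0.0553).

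The window of S100a4 is shown for comparison with the calprotectin pair. It lies at chr3:90603520-90603819 on the plus strand (GRCm38.p6, RefSeq), with the same meaning of the capitals.
S100a4: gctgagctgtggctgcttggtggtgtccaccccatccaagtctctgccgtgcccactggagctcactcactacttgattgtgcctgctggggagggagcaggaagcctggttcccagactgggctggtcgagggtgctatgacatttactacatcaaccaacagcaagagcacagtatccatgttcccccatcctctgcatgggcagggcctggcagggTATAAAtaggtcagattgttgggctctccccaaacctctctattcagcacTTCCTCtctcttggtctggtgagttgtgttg
It held a TATA box match at -31, a PU.1 match at 20 after the start and no C/EBP match.

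S100a6, which encodes calcyclin, a protein that binds the ubiquitin ligase adaptor CacyBP, differed in the same direction by less. Its log2 intensities were 9.59, 9.85, 9.45 and 9.57 in the inhibitor mice, against 8.71, 9.36 and 9.06 in the vehicle mice. The groups did not overlap, but the gap was 0.09, and the vehicle mice alone spanned 0.65. The log2 fold change was 0.57 (SE 0.19, 95% interval 0.15 to 0.99), with an adjusted p of 0.163 by limma and an exact permutation p of 0.0286. In both S100a4 and S100a6 the vehicle mice stood in the same order, V2 lowest and V3 highest, and over the 7 arrays the pair had the highest correlation of the 28 pairs of members (r = 0.931). With the group means taken off it was 0.786, below the 0.882 of S100a8 and S100a9. This describes 7 arrays that share the treatment groups and the normalization.

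S100a10 and S100a11 encode partners of annexins, S100A10 as the light chain of the annexin A2 complex at the plasma membrane and S100A11 chiefly with annexin A1. S100a10 had log2 intensities of 7.55, 6.58, 6.59 and 6.55 in the inhibitor mice R1 to R4, against 5.65, 6.71 and 6.64 in the vehicle mice V2 to V4. R1 was high and V2 was low. The 5 other mice lay within 6.55 to 6.71, and among them V3 and V4 stood slightly above R2, R3 and R4. The log2 fold change of 0.48 (SE 0.33, adjusted p = 0.577 by limma) therefore rested on R1 and V2, and it was 0.24 without R1 and 0.14 without V2. S100a11 had log2 intensities of 9.74, 10.09, 9.84 and 10.06 in inhibitor mice, against 9.72, 9.93 and 10.15 in vehicle mice. The ranges overlapped nearly in full, and the log2 fold change was 0.00 (SE 0.17, 95% interval -0.37 to 0.38, adjusted p = 1.0 by limma), so that the interval leaves room for a difference of up to about 0.38 either way. The window of S100a11 held AP-1 matches at -136 and -38 and a PU.1 match at -153.

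S100a13 was the only one of the 8 genes with a lower mean in inhibitor mice. S100A13 forms copper-dependent complexes with FGF1 and interleukin-1 alpha in the release of these proteins from cells. Its log2 intensities were 5.33, 5.12, 5.49 and 5.46 in the inhibitor mice, against 6.43, 6.38 and 5.77 in the vehicle mice. The groups did not overlap, and the gap of 0.28 was set by R3 and V4. The log2 fold change was -0.84 (SE 0.20, 95% interval -1.29 to -0.40), with an adjusted p of 0.0618 by limma and an exact permutation p of 0.0286. S100a13 passed in 1 of 16 alternatives, without V4, the lowest vehicle mouse, where the log2 fold change was -1.06 and the adjusted p was 0.0288 by limma. With another array left out the adjusted p lay between 0.0714 and 0.219 and the value was as small as -0.72, and with the trended and robust variance model the adjusted p was 0.136. S100a1, best known from heart muscle, had log2 intensities of 2.86, 2.85, 2.30 and 2.14 in inhibitor mice, against 2.25, 2.30 and 2.45 in vehicle mice. These values lie around the array medians, the groups overlapped, and the log2 fold change was 0.20 (SE 0.21, adjusted p = 0.748 by limma).

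S100a1 and S100a13 are neighbours whose start-site windows overlap, on opposite strands, by 204 bases at chr3:90514281-90514484. The window of S100a13, chr3:90514185-90514484 on the plus strand (GRCm38.p6, RefSeq), is shown with the bases it shares with the window of S100a1 in capitals.
S100a13: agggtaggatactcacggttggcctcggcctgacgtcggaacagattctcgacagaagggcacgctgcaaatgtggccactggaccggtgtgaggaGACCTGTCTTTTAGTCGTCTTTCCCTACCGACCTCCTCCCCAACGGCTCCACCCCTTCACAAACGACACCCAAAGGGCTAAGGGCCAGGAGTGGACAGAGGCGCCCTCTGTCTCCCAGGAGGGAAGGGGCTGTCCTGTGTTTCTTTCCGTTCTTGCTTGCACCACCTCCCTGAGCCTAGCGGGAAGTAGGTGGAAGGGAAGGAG
None of the letters searched for was found in either window. The values of these neighbours had opposite signs, 0.20 for S100a1 and -0.84 for S100a13.

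**Figure D2:**
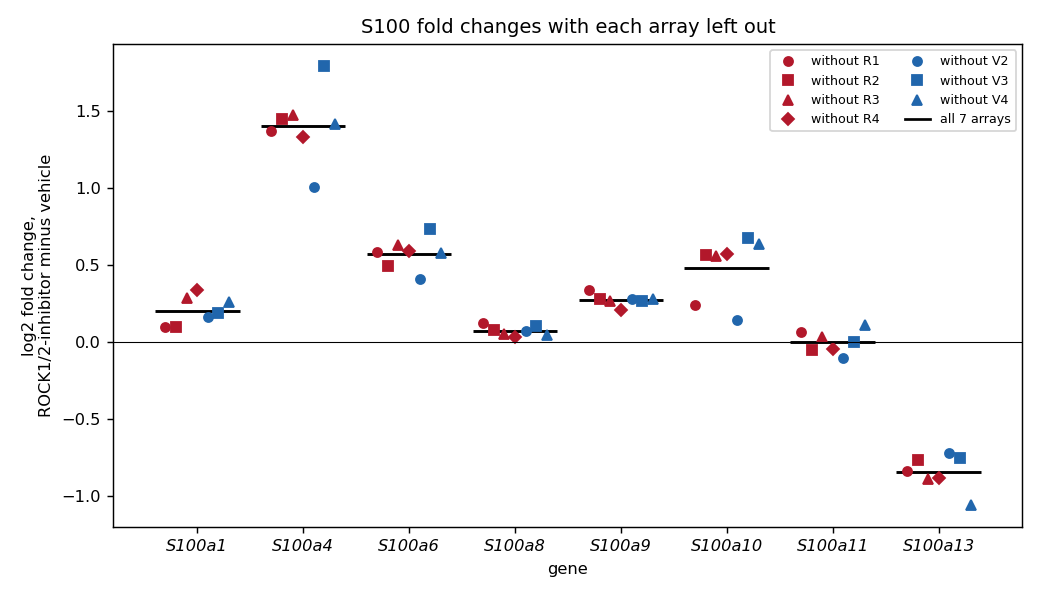
Log2 fold change, inhibitor minus vehicle (vertical axis), of each S100 gene (horizontal axis) with all 7 arrays (black line) and with each array left out (red symbols for an inhibitor mouse, blue for a vehicle mouse). S100a4 stays between 1.0 and 1.79 and S100a13 between -1.06 and -0.72, while S100a10 drops to 0.24 without R1 and to 0.14 without V2, and S100a11 lies on either side of 0.

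Most of the S100 genes lie together on mouse chromosome 3, but low signal in many of them limits a reading by gene order. In the order of RefSeq genes, S100a1 is followed by S100a13, S100a14, S100a16, S100a3, S100a2, S100a4, S100a5, S100a6, S100a7a, S100a8 and S100a9, and S100a11 and S100a10 lie in a separate block. S100a4 (1.40) and S100a6 (0.57) flank S100a5, which differed by -0.07 and whose group means were 1.57 in inhibitor mice and 1.64 in vehicle mice. Of the other S100 genes, 9 of 9 on the list had a value (S100a3, S100a5, S100a7a, S100a7l2, S100a14, S100a16, S100b, S100g and S100z), and 0 of 9 passed the threshold or had groups that did not overlap. Their intensities lay between 1.40 and 2.74 in all arrays, around or below the array medians of 2.14 to 2.19. Their log2 fold changes ran from -0.35 for S100a16 to 0.33 for S100a3, and at such low signal a change may not show. S100a2, which was not on the list, differed by 0.14 (adjusted p = 0.816 by limma). The gene just outside the block on the S100a1 side, Chtop, differed by -0.59, and Snapin beyond it by 0.73 (adjusted p = 0.0618 by limma).

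**Figure D3:**
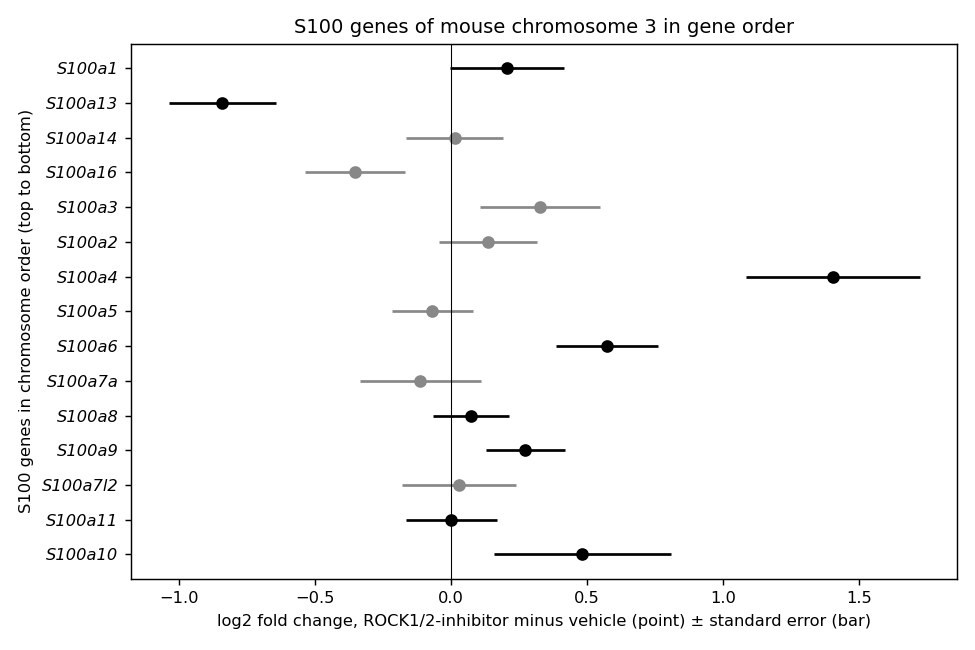
Log2 fold change, inhibitor minus vehicle (horizontal axis, point), with its standard error (bar) for S100 genes of mouse chromosome 3 in gene order from top to bottom, the 8 followed genes in black and others in grey; S100a11 and S100a10 come from a separate block. S100a4 at 1.40 and S100a13 at -0.84 have the largest values, and the others lie between -0.35 and 0.57. The genes in grey had signals around or below the array medians, where a change may not show.

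Outside the cell, S100A8 and S100A9 are known to act through TLR4, which needs the co-receptor MD-2 (Ly96) and is helped by CD14, and several S100 proteins bind RAGE (Ager). Of 12 receptor genes 1 rose, Ly96, 0 fell and 11 did not pass the test, with a median log2 fold change of 0.04. Among all transcript clusters 1.06% were called higher and 1.17% lower. Ly96 had log2 intensities of 8.67, 9.31, 9.04 and 9.41 in inhibitor mice, against 5.97, 6.72 and 7.07 in vehicle mice, and V2 was the lowest here as it was for S100a4. All inhibitor mice lay above all vehicle mice by more than 1 log2 unit, and the log2 fold change was 2.52 (SE 0.28, adjusted p = 0.0164 by limma). Tlr4 itself differed by -0.03 (adjusted p = 0.981), Cd14 by 0.91 (adjusted p = 0.208), the adaptor Myd88 by -0.84 (adjusted p = 0.0871) and Ager by 0.01. The other S100A8 and S100A9 receptors on the list also missed the threshold, with Bsg (basigin) at -0.89 (adjusted p = 0.248), Emb (embigin) at 0.64 (adjusted p = 0.180) and Cd69 at 0.92 (adjusted p = 0.272). The Ly96 call was lost in limma fits without R2, R3, R4 or V2, with adjusted p of 0.0505 to 0.0686.

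Of the annexins and other partners inside the cell, 16 of 17 had a named transcript cluster and 0 passed the test, with a median log2 fold change of -0.38, 5 values above 0 and 11 below. At an unadjusted p under 0.05 there were 8 of 16, against 15.3% of all transcript clusters. Anxa2, the partner of S100A10, had log2 intensities of 7.77, 8.07, 7.57 and 7.45 in inhibitor mice, against 8.03, 8.12 and 8.15 in vehicle mice, a log2 fold change of -0.38 (adjusted p = 0.349 by limma), and Anxa1, the partner of S100A11, differed by -0.39 (adjusted p = 0.304). R1, the mouse with high S100a10, had an Anxa2 value inside the range of the other inhibitor mice. Cacybp, the partner of S100A6, had log2 intensities of 7.04, 6.42, 6.80 and 6.47 in inhibitor mice, against 5.04, 5.57 and 6.22 in vehicle mice. These groups did not overlap, as for S100a6, and the log2 fold change was 1.07 (adjusted p = 0.0836 by limma). In this list 5 of 16 genes had groups that did not overlap, against 13.3% of all transcript clusters. Cacybp and Sugt1 were higher, and Anxa1, Anxa3 and Anxa7 were lower. The groups of S100a11, whose protein pairs with annexin A1, overlapped. Myh9, the myosin heavy chain bound by S100A4, differed by -0.38 (adjusted p = 0.592), and the genes of the S100A13 release complex, Fgf1, Il1a and Syt1, by -0.50, -0.03 and -0.06.

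Of 7 genes for transcription factors known to act on myeloid S100 genes, 1 fell, Cebpe, 0 rose and 6 did not pass the test, with a median log2 fold change of -0.76. Among all transcript clusters 1.17% were called lower and 1.06% higher, the background for both counts in this paragraph. Cebpe, which drives the making of secondary granules in neutrophil precursors, had log2 intensities of 5.19, 4.93, 5.20 and 4.35 in inhibitor mice, against 6.70, 6.86 and 5.97 in vehicle mice. Every inhibitor mouse lay below every vehicle mouse, with a log2 fold change of -1.59 (SE 0.27, adjusted p = 0.0279 by limma). Cebpd (-1.37, adjusted p = 0.0524) and Cebpb (-0.86, adjusted p = 0.0570) also had groups that did not overlap and missed the threshold, while Spi1, which encodes PU.1, differed by 0.13. The Cebpe call was lost in limma fits without R2, R3, R4, V2 or V3, with adjusted p of 0.0609 to 0.113. S100a8 and S100a9, whose windows hold the C/EBP letters as 40.7% of all windows do, had log2 fold changes of 0.07 and 0.27. Both genes lay near the top of the scale, and a link to the C/EBP genes was not tested. Of 6 genes for other proteins that withhold metals or bind them, 1 fell and 0 rose. This was Ltf, which encodes lactoferrin, an iron-binding protein of neutrophil granules, with log2 intensities of 10.41, 10.64, 10.62 and 10.45 in inhibitor mice, against 11.57, 11.11 and 11.47 in vehicle mice. The log2 fold change of Ltf was -0.85 (SE 0.16, adjusted p = 0.0372 by limma), and the call was lost without R2, R3, R4, V2, V3 or V4 (adjusted p of 0.059 to 0.14). Hp (haptoglobin) and Lcn2 (lipocalin 2) had -0.94 (adjusted p = 0.0625) and -0.22 (adjusted p = 0.581).

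**Figure D4:**
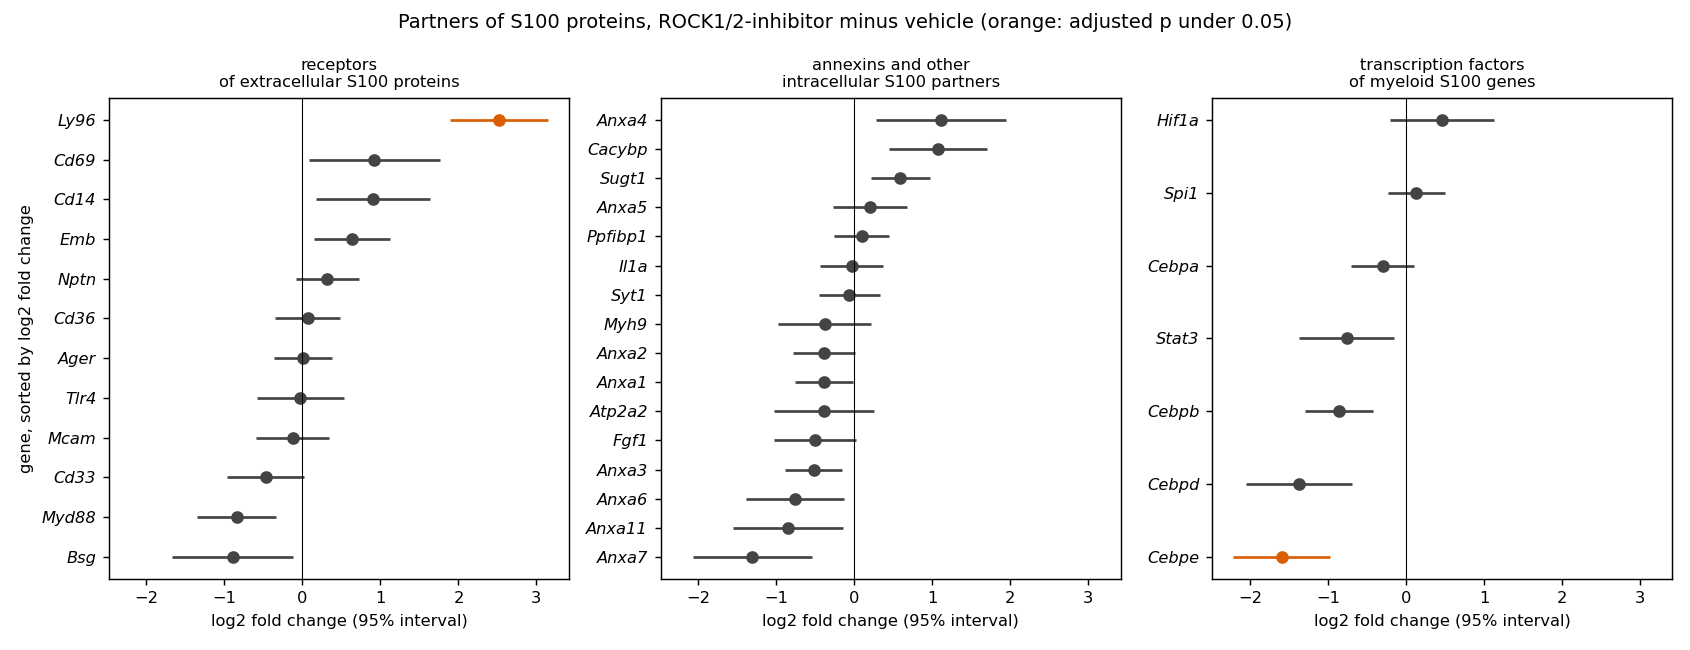
Log2 fold change, inhibitor minus vehicle (horizontal axis, point), with its 95% interval (bar) for receptors of extracellular S100 proteins, annexins and other intracellular partners, and transcription factors of myeloid S100 genes (vertical axis, sorted within a panel); orange marks an adjusted p under 0.05. Ly96 at 2.52 and Cebpe at -1.59 are the genes past the threshold, and no annexin is.

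Markers of cell types that the gate can hold, and of some that it should leave out, were read beside the S100 genes. The lists of T cells, B cells and endothelial cells had means of 1.51 to 2.27, around or below the array medians. Over all transcript clusters 1.17% were called lower and 1.06% higher, the background for the counts that follow. On the list for neutrophil primary granules, which are made in precursors, 4 of 8 genes fell. These were Mpo, Prtn3 and Fcnb, which encode granule proteins, and Cebpe, a transcription factor of precursors that is no granule protein, so that 3 of the 7 other genes fell. The mean of the list, Cebpe included, was 4.99 to 6.09 in inhibitor mice and 6.38 to 6.86 in vehicle mice. For secondary granules 3 of 8 measured genes fell (Ltf, Cd177 and Itgb2l), with list means of 10.24 to 10.39 in inhibitor mice and 10.70 to 10.97 in vehicle mice. Both lists had no overlap between the groups. The same held for S100a13, which was lower, and for S100a4, S100a6 and S100a9, which were higher, while the S100a8 values overlapped. The means of the lists of transcription factors, metal-withholding proteins, other EF-hand sensors and NADPH oxidase subunits were also lower without overlap. The means of all other lists overlapped. For single transcript clusters the groups did not overlap in 13.3% (7.03% lower and 6.22% higher), and no such share was drawn up for list means. For mature neutrophils 1 of 6 measured genes rose (Clec4d, log2 fold change 1.48), with list means of 8.48 to 8.87 in inhibitor mice and 8.12 to 8.87 in vehicle mice. For inflammatory monocytes 1 of 6 genes rose (Ms4a4c, 1.35), and the list mean was 7.86, 7.82, 7.78 and 7.35 in inhibitor mice, against 6.65, 7.35 and 7.78 in vehicle mice. V2, the vehicle mouse lowest in S100a4, S100a6 and S100a10, was also the lowest in the monocyte list, but V4, which was high in that list, was below V3 in S100a4 and S100a6. For macrophages 1 of 11 genes rose (Aif1, 2.24) and 0 fell, but 8 of 11 had values below 0 and the median log2 fold change was -0.11. Among these were C1qb (-0.63, adjusted p = 0.269 by limma), Hmox1 (-0.62, adjusted p = 0.438) and Slc40a1 (-0.57, adjusted p = 0.182), and for Slc40a1 the groups did not overlap. Apart from Aif1, Hmox1 and Slc40a1, the genes of this list, C1qb included, stayed below the 75th percentile of every array (3.35 to 3.68). The signs of such low signals say little. The macrophage list means were 2.77 to 3.07 in inhibitor mice and 2.69 to 2.93 in vehicle mice. With all arrays 494 transcript clusters passed, and without R2, R4 or V2 only 2 did, without R3 only 4 and without V3 only 34. Most calls in these lists were therefore lost too when such a mouse was left out, in fits that also had fewer arrays. The fold changes moved less. With each array left out Cebpe stayed between -1.87 and -1.41 and Ltf between -0.99 and -0.76. The part of these cell types in the S100 values was not tested. The lists share Cebpe, Ltf and Lcn2 with the partners above, and 0 genes passed the test in the lists of patrolling monocytes, dendritic cells, eosinophils, basophils and mast cells, T cells, B cells, NK cells, erythroid cells, platelets, endothelial cells and stromal reticular cells.

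**Figure D5:**
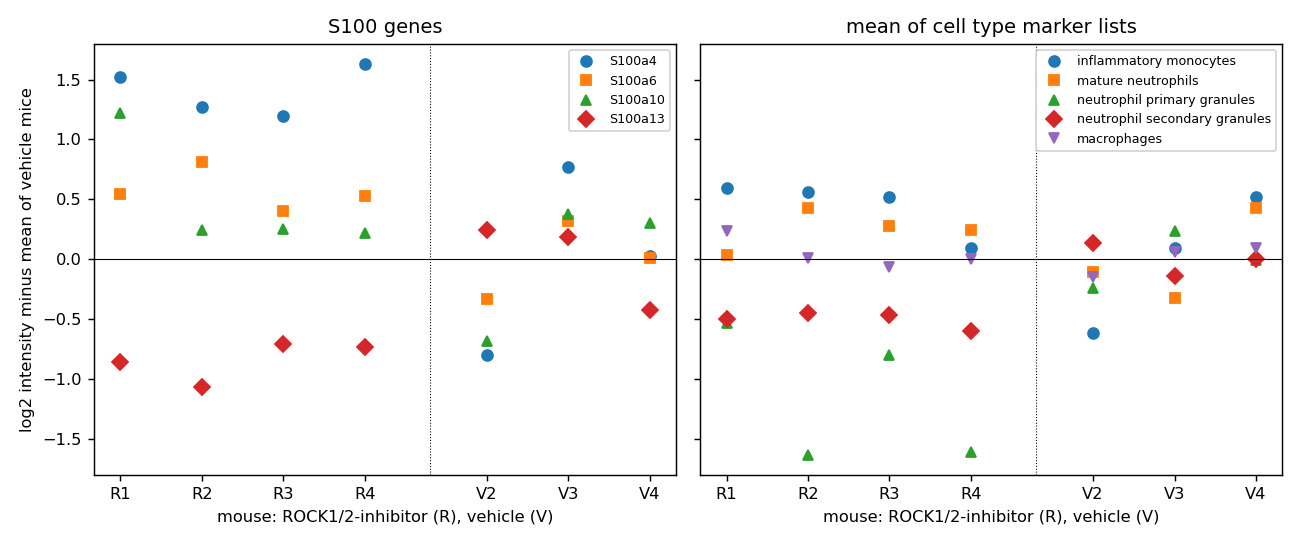
Log2 intensity minus the mean of the vehicle mice (vertical axis) in each mouse (horizontal axis, inhibitor mice R1 to R4 left of vehicle mice V2 to V4) for S100a4, S100a6, S100a10 and S100a13 and for the means of 5 marker lists. The monocyte list runs from 0.091 to 0.595 in inhibitor mice and from -0.613 to 0.523 in vehicle mice, with overlap, whereas both granule lists lie below every vehicle mouse in every inhibitor mouse.

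The members varied together only in part across the 7 arrays. S100a8 and S100a9 had a correlation of 0.804 (0.882 with the group means taken off), and S100a4 and S100a10 had 0.719 (0.682). S100a13 ran against S100a6 (-0.804) and S100a4 (-0.754), but with the group means taken off these were -0.328 and -0.0481. The genes with the profile most like that of S100a4, among 9938 named genes brighter than the median, were Abracl (r = 0.993), Rps3a1 (0.990), Ccng2 (0.989), Rnf138 (0.987) and Sec61g (0.984). For the mean of S100a8 and S100a9 they were Wdr11 (0.991), Gm14403 (0.989), Cdk13 (0.980), Zcchc8 (0.975) and Mcts1 (0.964). These correlations are over 7 arrays that share the treatment and the normalization, and they describe likeness of profile in the best of many candidates.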

How the data were processed

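Gene expression of the 7 samples was profiled on Clariom S Mouse arrays. The authors ran Robust Multi-Array Average in oligo (version not given in the sources used here) and deposited log2 intensities summarized to genes. Background correction and quantile normalization therefore remain as they ran them. The table holds 22203 rows, of which 22139 transcript clusters were tested, and 19527 of these carry a symbol, for 19494 genes. For the build behind the probe design the sources used here give nothing. The labels name a PicoPure kit and the methods a miRNeasy kit for RNA isolation.

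Groups were taken from the sample labels and compared by a two-sided test without covariates in limma 3.58.1 (R 4.3.3, default eBayes after lmFit), with Benjamini-Hochberg adjustment over all transcript clusters at a threshold of 0.05. Exact permutation tests covered all 35 splits of the arrays, two-sided. Each array is 1 mouse, so p-values measure the spread between mice, and the number of arrays limits the precision. As alternatives, the fit was run with trended and robust variances (statmod 1.5.0), array weights, renewed quantile, cyclic loess or median scaling, other row sets, the replicate number as a block, and each array left out. Named genes are all S100 members, every list gene past the threshold or needed to describe its list, and the 5 genes most correlated with S100a4 and with the S100a8 and S100a9 mean. A symbol with several transcript clusters was represented by the brightest. The members and lists were chosen with earlier results of these data known. Figures used matplotlib 3.10.9 and pandas 2.3.3 under Python 3.11.15.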

Additional observations from a re-analysis of the deposited data

Results flagged for a closer look

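In the inhibitor group, 6 of 101 tested measures (the S100 genes, the genes of their lists and the list means) had a mouse far from the other 3, by the share of the group's range taken by its gap to the nearest mouse. Chance alone flags a few measures of this many. For S100a10 the mouse R1 was high, with a gap of 0.962 of the range, and without R1 the log2 fold change was 0.24. R1 also stood apart for Lcp1 (0.840), an actin-bundling EF-hand protein of leukocytes, and for Stat3 (0.915). R4 stood apart for Cd69 (0.869), for Anxa1 (0.874) and for the mean of the inflammatory monocyte list (0.855), where it was the lowest inhibitor mouse. The vehicle group, with 3 mice, was not tested in this way. None of these measures had been called in the comparison of the groups.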

How the results depend on the processing

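S100a4, S100a6, S100a9, S100a10, S100a1 and S100a13 kept their direction in all 16 alternatives. A changed variance model or row set leaves the fold change of a gene as it was, so direction could not turn there. Median scaling moved all genes alike, and the replicate block repeated the values without R1. No alternative left out both R1 and V2, on which S100a10 rested. The count of S100 genes past the threshold was 0, and it was 1 with the trended and robust variance model (S100a4), 1 with the dimmest 25% left out (S100a4), and 0 to 1 when each array was left out (S100a13 without V4). S100a8 turned to -0.11 with cyclic loess normalization. S100a11, at 0.00, turned to -0.0062 with array weights, to -0.16 with cyclic loess normalization, to -0.05 without R2, to -0.04 without R4 and to -0.11 without V2, with a range of -0.11 to 0.11 over the arrays left out. The cause was not tested. Over all transcript clusters 494 passed, and 2 to 1035 when each array was left out (1035 with R1 dropped, 2 with R2, R4 or V2 dropped, 4 with R3 dropped and 34 with V3 dropped). The genes of the partner lists past the threshold numbered 5, and 0 to 13 when each array was left out (13 with R1 dropped, 0 with R2, R3, R4 or V2 dropped and 1 with V3 dropped). With the replicate number as a block the count over all transcript clusters was 964 and that of the S100 genes 0. R1 has no vehicle mouse of its number, so under the block its array does not enter the group difference. Arrays of the same number correlated at 0.0962, -0.128 and -0.0316 after removal of the group means, so the numbers were not taken as pairs, and under the block Ltf had an adjusted p of 0.0716 by limma. The brightness near the top of the scale limits S100a8 and S100a9, and the low signal limits S100a1.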

Other observations

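Other calcium sensors of the EF-hand type were measured in the same arrays. Of 13 measured genes 1 fell, Nucb1, which encodes a calcium-binding protein of the Golgi, and 0 rose, with a median log2 fold change of -0.08. Among all transcript clusters 1.17% were called lower and 1.06% higher. Nucb1 had log2 intensities of 6.22, 5.59, 5.39 and 5.60 in inhibitor mice, against 7.25, 7.17 and 7.22 in vehicle mice, and a log2 fold change of -1.51 (SE 0.20, adjusted p = 0.0178 by limma). The groups did not overlap, and the 3 vehicle mice lay close together. Efhd2 (-1.42, adjusted p = 0.0524), Pef1 (-1.41, adjusted p = 0.0686) and the calmodulin gene Calm2 (0.76, adjusted p = 0.0581) lay just above the threshold. The other measured calmodulin gene, Calm3, went the other way, at -0.60 (adjusted p = 0.104 by limma), with groups that did not overlap. The Nucb1 call was lost in limma fits without R2, R3, R4, V2 or V3, with adjusted p of 0.0537 to 0.0743.

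The NADPH oxidase makes superoxide in phagocytes, and calprotectin is known to help its assembly by carrying arachidonic acid. Of 5 measured subunit genes 1 fell, Rac2, and 0 rose, with a median log2 fold change of -0.59, beside 1.17% called lower and 1.06% higher among all transcript clusters. Rac2, the regulatory GTPase, had log2 intensities of 8.47, 8.51, 8.03 and 7.63 in inhibitor mice, against 9.31, 9.18 and 9.48 in vehicle mice, a log2 fold change of -1.17 (SE 0.23, adjusted p = 0.0390 by limma). The Rac2 call was lost in limma fits without R2, R3, R4, V2, V3 or V4, with adjusted p of 0.0633 to 0.13. Cybb, the catalytic subunit, differed by 0.09, and Ncf4 and Cyba by -1.06 (adjusted p = 0.0837) and -0.59 (adjusted p = 0.0959).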
